A study of Homo sapiens with 3 samples.

Results

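The Polycomb and H3K9 methylation machinery of HCT116 cells was followed by transcript level after depletion of UHRF1. The set has 41 genes, chosen by the function of their products: 11 of Polycomb repressive complex 2 (PRC2), 15 of Polycomb repressive complex 1 (PRC1), 13 of the H3K9 methylation and HP1 pathway, and 2 demethylases of H3K27. Of these, 38 had at least 1 probe set that the platform annotation assigns to 1 gene alone, with 119 such probe sets among 41091. The PRC1 genes RNF2, BMI1 and CBX8 had none and were not analysed here, which leaves 12 PRC1 genes. HCT116 is a human colorectal carcinoma line. The series holds 3 Affymetrix arrays: UHRF1 shRNA-2 (1 array), UHRF1 shRNA-5 (1 array) and the scrambled (Scr) shRNA control (1 array). All 3 cultures received their hairpin by lentivirus and had 6 days of puromycin selection before harvest, so infection and selection are shared by the control. No hairpin has a second array. The 2 UHRF1 hairpins served as the replicates of depletion.

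Polycomb proteins keep genes silent through histone marks. PRC2 methylates H3K27, and PRC1 ubiquitinates histone H2A, reads methylated H3K27 through its CBX subunits and compacts chromatin. A parallel system methylates H3K9, which HP1 proteins bind to build heterochromatin. UHRF1 recognises the histone H3 tail and hemimethylated DNA, and the series compared transcripts with and without its depletion. The arrays report the RNA of the machinery, not the marks. In bulk RNA, fewer expressing cells and less RNA per cell cannot be told apart.

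UHRF1 itself read 6.20 with hairpin 2, 6.67 with hairpin 5 and 8.54 on the control array (log2 units of the deposited RMA values, as all levels here). Of 12 markers of colorectal epithelium, 10 were at the tested level, which is the 40th percentile of all genes (log2 3.28), and VIL1 and LGALS4 were under it. Of 4 leukocyte markers 0 reached it, and of 8 markers of fibroblasts and endothelium COL1A1 and PECAM1 did. The interferon-induced gene IFIT1, named after its value was seen, read 10.01 with hairpin 2, 5.41 with hairpin 5 and 3.22 in the control. The epithelial markers together had medians of 6.07 with hairpin 2, 5.96 with hairpin 5 and 5.59 in the control. The epithelial marker KRT20 was high with hairpin 2 alone (5.62, against 2.64 with hairpin 5 and 2.77 in the control). It counts among the 10 at the tested level only through hairpin 2. The part of these differences in the values below was not tested.

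All 38 genes were at the tested level, and the machinery did not move as a block. The median difference from the control was 0.07 (log2) with hairpin 2 and -0.04 with hairpin 5, beside 0.03 and -0.06 over the 11865 genes tested. By complex, the medians with hairpin 2 and hairpin 5 were 0.09 and -0.09 for PRC2, 0.07 and -0.02 for PRC1, and -0.01 and -0.04 for the H3K9 and HP1 genes. Of the 38, 13 read higher than the control with both hairpins (background 29.0% of tested genes, members 34.2%), 14 lower (background 32.3%, members 36.8%) and 11 lay on opposite sides of it with the 2 hairpins (background 38.7%, members 28.9%). These shares lie near those of all genes, which share the same control array. In limma, two-sided with Benjamini-Hochberg adjustment over the 11865 genes, 0 members passed an adjusted p of 0.05 (background 0% of tested genes), and the lowest adjusted p among them was 0.999. At an unadjusted p under 0.05, limma had 2 members, PHC3 and PCGF3 (background 2.33%). With 1 control and 2 hairpins an exact permutation over samples cannot go below p = 0.333. So each difference is given below as a pair of log2 differences from the control, hairpin 2 and then hairpin 5, or as their mean with the SD between them. The median standard error of a member's difference in the limma fit was 0.28. UHRF1 itself did not pass the adjusted p of 0.05 in this fit, so missing it does not show that a member was unchanged.

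**Figure D1:**
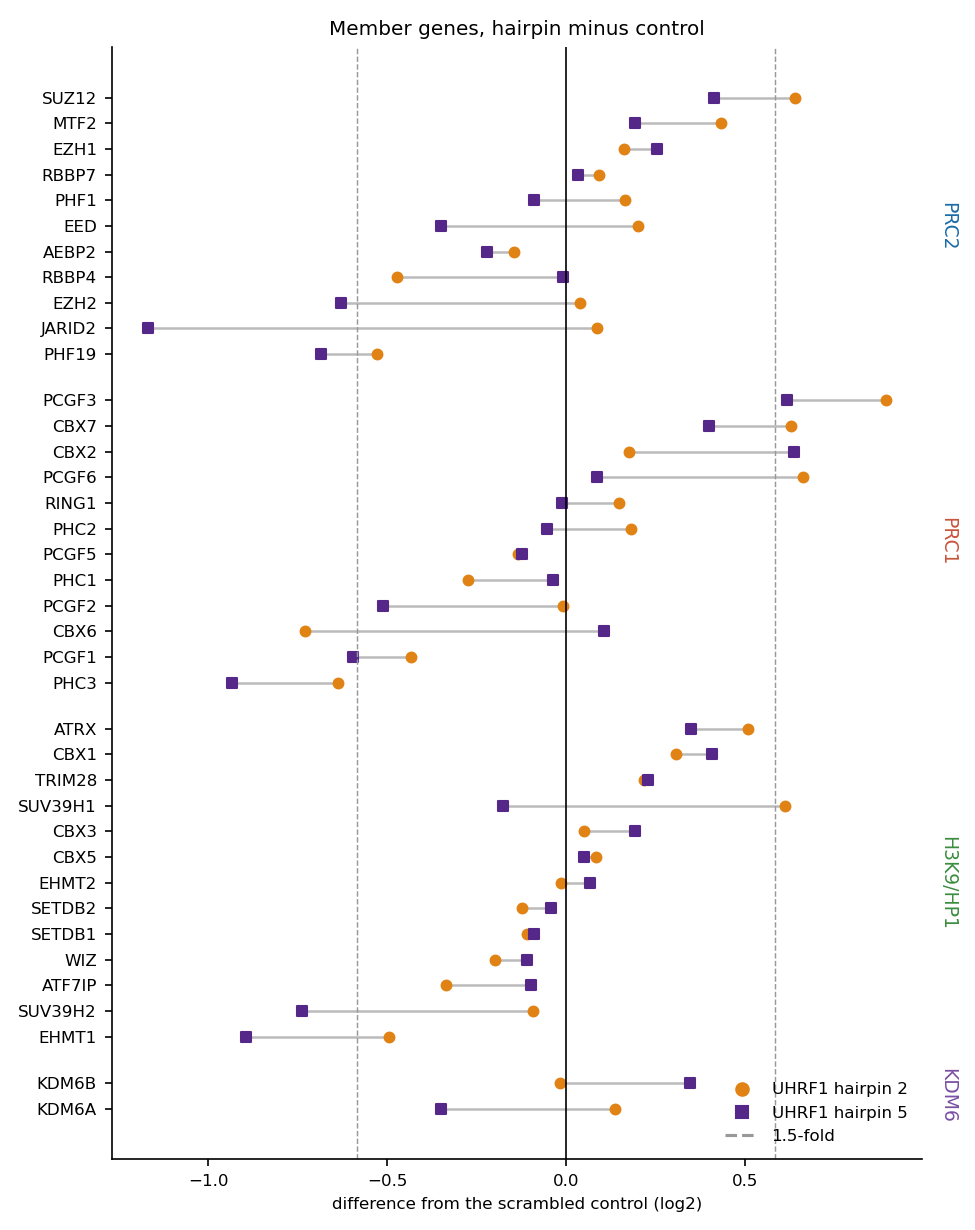
Difference from the scrambled control (log2) of each member gene for UHRF1 hairpin 2 (circles) and UHRF1 hairpin 5 (squares), 1 array each, with grey lines joining the hairpins and dashed lines at 1.5-fold. Only PCGF3 and PHC3 have both points past the same dashed line, and the points of 11 genes lie on opposite sides of 0.

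A member was singled out where both hairpins differed from the control by at least 1.5-fold in the same direction. Only 2 of the 38 met this, both of them PRC1 genes: PCGF3 above the control and PHC3 below it. This is 2.63% of members in each direction, against 0.460% of all 19775 genes on the array on the higher side and 1.00% on the lower side (0.759% and 1.59% of tested genes). At 2-fold with both hairpins there were 0 members, against 0.101% of tested genes higher and 0.278% lower. At 1.2-fold, SUZ12, CBX7, CBX1 and ATRX joined PCGF3 on the higher side (5 members, 13.2%, background 6.65% of tested genes). PHF19, PCGF1 and EHMT1 joined PHC3 on the lower side (4 members, 10.5%, background 9.09%).

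PCGF3 encodes a RING finger subunit of variant PRC1 complexes, which carry RYBP or YAF2 in place of a CBX protein. Its brightest probe set (212753_at) read 6.25 with hairpin 2, 5.97 with hairpin 5 and 5.36 in the control, so both hairpin arrays were above the control array. The difference was 0.76 ± 0.20 (SD, n = 2 hairpins), or 1.86-fold with hairpin 2 and 1.53-fold with hairpin 5, and limma's 95% interval ran from 0.05 to 1.46 (adjusted p = 0.999). By whichever hairpin difference was smaller, PCGF3 was among the 78 of 19775 genes at least this far above the control. A second PCGF3 probe set (204564_at) had the same direction, 0.76 and 0.27, while another (238084_at) differed by 0.40 with hairpin 2 and -0.42 with hairpin 5. As the mean over its probe sets at the tested level, PCGF3 differed by 0.68 and 0.15, a mean of 0.42, and was no longer past 1.5-fold with hairpin 5. With the arrays centred on their medians the mean difference was 0.75, close to that of the deposited values, but hairpin 5 came to lie under 1.5-fold.

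PHC3 is a Polyhomeotic protein, whose SAM domain links canonical PRC1 complexes to one another. Its brightest probe set (226508_at) read 6.40 with hairpin 2, 6.10 with hairpin 5 and 7.03 in the control, so both hairpin arrays lay below the control. The difference was -0.78 ± 0.21 (SD, n = 2 hairpins), or 1.55-fold with hairpin 2 and 1.91-fold with hairpin 5 in the lower direction, with a limma interval of -1.49 to -0.08 (adjusted p = 0.999). Ranked on the lower side, PHC3 was among the 158 genes at least this far. The other PHC3 probe set at the tested level (238693_at) differed by -0.25 and -0.08, and the mean of both by -0.44 and -0.51, a mean of -0.48, which is under 1.5-fold with either hairpin. Among its paralogs, PHC1 differed by -0.27 and -0.04, and PHC2 by 0.18 and -0.05, on their brightest probe sets. Averaged over probe sets at the tested level, PHC1 differed by -0.12 and 0.11, and PHC2 by 0.015 and -0.03.

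UHRF1 binds hemimethylated CpG sites, so the promoters of the 2 genes past 1.5-fold are shown with every CG in capitals, from 250 bases before to 50 after the RefSeq start of the gene (build GRCh38.p14, 5′ to 3′ on the gene's own strand). The PCGF3 window lies at chr4:705582-705881 on the plus strand and the PHC3 window at chr3:170181684-170181983 on the minus strand.
PCGF3: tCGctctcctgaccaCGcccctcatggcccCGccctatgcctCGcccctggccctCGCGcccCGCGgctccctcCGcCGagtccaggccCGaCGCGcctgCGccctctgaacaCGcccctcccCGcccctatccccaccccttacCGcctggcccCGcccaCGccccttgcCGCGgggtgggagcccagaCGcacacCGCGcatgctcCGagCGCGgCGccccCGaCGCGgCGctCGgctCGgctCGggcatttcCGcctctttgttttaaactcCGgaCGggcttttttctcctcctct
PHC3: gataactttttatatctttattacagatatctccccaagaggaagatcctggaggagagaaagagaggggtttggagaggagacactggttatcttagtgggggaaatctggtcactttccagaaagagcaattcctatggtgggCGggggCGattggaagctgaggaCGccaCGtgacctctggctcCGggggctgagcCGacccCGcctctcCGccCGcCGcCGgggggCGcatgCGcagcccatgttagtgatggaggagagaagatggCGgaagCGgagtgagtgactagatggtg
The PCGF3 window has 38 CG dinucleotides, more than 90.3% of 27305 RefSeq promoter windows of the same length, and the PHC3 window has 15, more than 51.2% of them. The CG dinucleotide reads the same on both strands. Of the 38 members, 35 had a promoter window, with a median of 28 CG (range 2 to 55), beside 26 for the promoters of 9592 tested genes and 14 for all windows. By complex, the medians were 28 for PRC2, 30 for PRC1 and 25 for the H3K9 and HP1 genes. EHMT1 had 51 and PCGF5 55, while PCGF2 had 2. These counts describe the sequence alone, since DNA methylation was not measured.

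In PRC2, the scaffold subunit SUZ12 had the highest and the Polycomb-like protein PHF19 the lowest mean difference from the control by the brightest probe set. Averaged over all probe sets of a gene, MTF2 (0.42) stood above SUZ12 (0.14), and EZH2, with 1 probe set (-0.29), below PHF19 (-0.26). Averaged over those at the tested level only, SUZ12 (0.53) stayed above MTF2 (0.42), and EZH2 was again below PHF19. SUZ12 holds the catalytic core together. It read 8.14 with hairpin 2, 7.91 with hairpin 5 and 7.50 in the control, both hairpin arrays above the control, for a difference of 0.53 ± 0.16 (SD, n = 2 hairpins; limma interval -0.16 to 1.22). Its other 2 probe sets were under the tested level. PHF19 helps to bring PRC2 to chromatin and binds methylated H3K36. It read 7.12 with hairpin 2, 6.96 with hairpin 5 and 7.65 in the control, both below the control, for a difference of -0.61 ± 0.11 (SD, n = 2 hairpins; limma interval -1.28 to 0.07). A second PHF19 probe set (227212_s_at) differed by -0.33 and -0.75, and another (225533_at) went the other way, 0.49 and 0.26. Averaged over all 3, PHF19 differed by -0.12 and -0.39.

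The other Polycomb-like proteins did not read lower as PHF19 did. MTF2 was 0.43 above the control with hairpin 2 and 0.19 with hairpin 5, and all 5 of its probe sets had a mean difference above 0, from 0.12 to 0.87. PHF1 differed by 0.17 and -0.09 on its brightest probe set and by 0.18 and 0.59 on the other. Both catalytic subunits, EZH1 and EZH2, transfer methyl groups to H3K27. EZH2, the form that prevails in dividing cells, read 7.69 with hairpin 2, 7.02 with hairpin 5 and 7.65 in the control. It was therefore near the control with hairpin 2 and 1.55-fold lower with hairpin 5. EZH1 differed by 0.16 and 0.25 on its brightest probe set and by -0.28 and -0.19 on the next (32259_at). EED, which binds the H3K27 mark that PRC2 deposits, differed by 0.20 and -0.35.

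JARID2 and AEBP2 are accessory subunits that define another form of PRC2. JARID2 read 7.43 with hairpin 2, 6.17 with hairpin 5 and 7.34 in the control. Hairpin 5 alone was low, 2.25-fold under the control, and JARID2 was the 1 member past 2-fold on either array by its brightest probe set (1.94% of tested genes were 2-fold lower with hairpin 5). Its second probe set (203297_s_at) did not follow, at 0.44 and -0.01. AEBP2 read 5.75 with hairpin 2, 5.67 with hairpin 5 and 5.89 in the control (-0.18 ± 0.06, SD, n = 2 hairpins). The histone-binding proteins RBBP4 and RBBP7, shared with other chromatin complexes, differed by -0.47 and -0.01 and by 0.09 and 0.03. Averaged over its probe sets at the tested level, RBBP4 differed by -0.28 and 0.04.

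**Figure D2:**
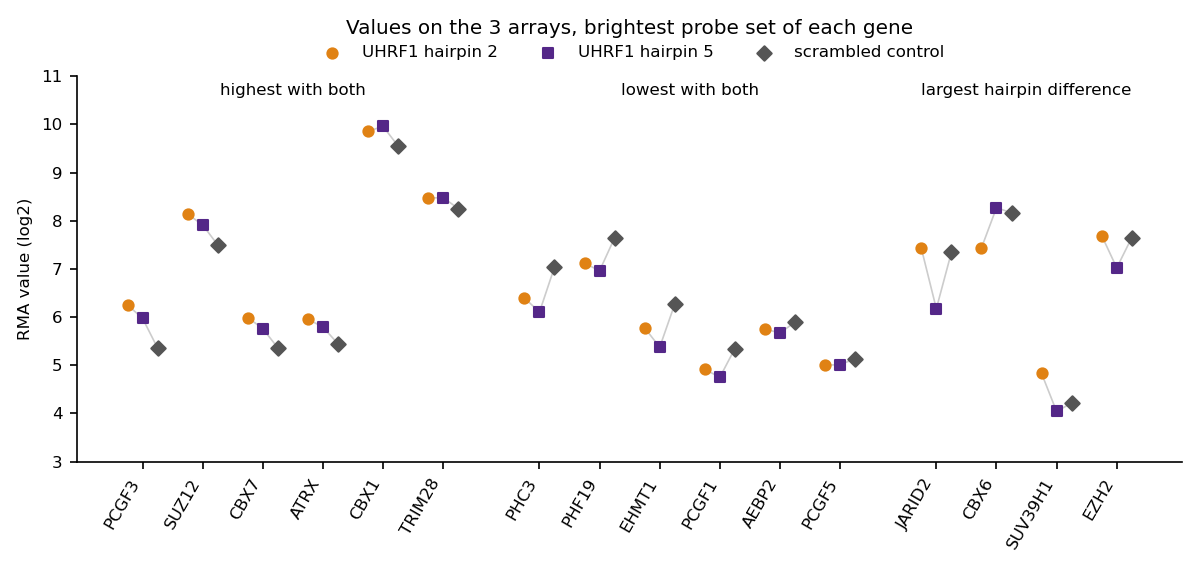
RMA value (log2) of the brightest probe set on the arrays of UHRF1 hairpin 2, UHRF1 hairpin 5 and the scrambled control, for the 6 members highest and the 6 lowest against the control with both hairpins and the 4 others that differ most between the hairpins. By this choice both hairpin points lie above the control in the first set and below it in the second. In the last set 1 hairpin lies within 0.18 of the control.

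Among the other PRC1 genes, the chromodomain subunits differed in direction. CBX7, a reader of methylated H3K27, read 5.99 with hairpin 2, 5.76 with hairpin 5 and 5.36 in the control (0.51 ± 0.16, SD, n = 2 hairpins). Both arrays were above the control, and CBX7 has a single probe set. CBX2 was higher with both, mainly with hairpin 5 (0.18 and 0.64). Of its other probe sets at the tested level, 224138_at differed by 0.11 and 0.03 and 240084_at by -0.07 and -0.15. CBX6 read 7.43 with hairpin 2, 8.27 with hairpin 5 and 8.16 in the control, so it was 1.66-fold lower with hairpin 2 alone. The second CBX6 probe set had the same split, -0.23 and 0.26. RING1, the ubiquitin ligase subunit, stayed within 0.15 of the control on both arrays and both probe sets.

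The PCGF subunits, which tell the PRC1 complexes apart, did not move together. PCGF1, of the complex that contains KDM2B and BCOR, read 4.91 with hairpin 2, 4.75 with hairpin 5 and 5.35 in the control (-0.51 ± 0.12, SD, n = 2 hairpins). Both arrays were below the control, but the other PCGF1 probe set differed by 0.13 and -0.17. PCGF5, the close paralog of PCGF3, differed by -0.13 and -0.12 on its brightest probe set, which read 5.00, 5.01 and 5.13 with hairpin 2, with hairpin 5 and in the control. Its other 2 probe sets at the tested level were further below with hairpin 5: -0.31 and -0.70 for 226326_at, and -0.19 and -1.24 for 229194_at. All 3 thus lay below the control with both hairpins, opposite to 2 of the 3 PCGF3 probe sets at that level. PCGF6, of a variant complex with MGA and E2F6, differed by 0.66 and 0.09. PCGF2, a subunit of canonical PRC1, differed by -0.01 and -0.51 on its brightest probe set and by -0.44 and -0.45 on another (203793_x_at), and all 4 of its probe sets carry the _x_at suffix of probes that can bind other transcripts.

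Among the enzymes that methylate H3K9, EHMT1 had the lowest mean difference by the brightest probe set. Over probe sets at the tested level SUV39H2 was lower (-0.42, against -0.18 for EHMT1). EHMT1 works as a dimer with EHMT2 on mono- and dimethylation of H3K9 in euchromatin. EHMT1 read 5.77 with hairpin 2, 5.37 with hairpin 5 and 6.27 in the control (-0.69 ± 0.28, SD, n = 2 hairpins; limma interval -1.44 to 0.05). The other EHMT1 probe set at the tested level (219339_s_at) went the other way, 0.24 and 0.42. EHMT2 differed by -0.01 and 0.07 on its brightest probe set and by 0.48 and 0.18 on the other at the tested level (207484_s_at). Their zinc finger partner WIZ differed by -0.20 and -0.11, or -0.03 and -0.04 over its probe sets at the tested level.

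The enzymes of constitutive heterochromatin, SUV39H1 and SUV39H2, trimethylate H3K9, and each was past 1.5-fold on 1 array only. SUV39H1 read 4.83 with hairpin 2, 4.04 with hairpin 5 and 4.22 in the control, which put hairpin 2 alone 1.53-fold above. SUV39H2 read 5.81 with hairpin 2, 5.17 with hairpin 5 and 5.91 in the control, which put hairpin 5 alone 1.67-fold below. On both genes hairpin 2 was above hairpin 5 by more than 1.5-fold. SETDB1, the methyltransferase recruited by TRIM28, differed by -0.11 and -0.09, and SETDB2 by -0.12 and -0.04 at a level near the tested limit (3.39 with hairpin 2, 3.47 with hairpin 5 and 3.51 in the control).

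TRIM28, the corepressor that zinc finger proteins bind, read 8.47 with hairpin 2, 8.48 with hairpin 5 and 8.25 in the control. Its difference of 0.22 ± 0.01 (SD, n = 2 hairpins) was small but almost equal on both arrays. The SD leaves out the error of the shared control array, and the limma interval ran from -0.43 to 0.88. ATF7IP, the partner that stabilises SETDB1, differed by -0.34 and -0.10 on its brightest probe set, an _x_at one. On the next (225917_at) it differed by -0.32 and -0.54, and on another (218987_at) by 1.06 and -0.02.

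Of the HP1 proteins, which bind methylated H3K9, CBX1 (HP1 beta) read 9.86 with hairpin 2, 9.96 with hairpin 5 and 9.55 in the control (0.36 ± 0.07, SD, n = 2 hairpins). On their brightest probe sets, CBX3 (HP1 gamma) differed by 0.05 and 0.19 and CBX5 (HP1 alpha) by 0.08 and 0.05. The next CBX5 probe set (209715_at) split between the hairpins, at 0.36 and -0.40. A dimmer CBX5 probe set (242069_at) was below the control, at 4.07 with hairpin 2, 3.79 with hairpin 5 and 4.84 in the control. Averaged over probe sets at the tested level, CBX3 differed by -0.02 and 0.05 and CBX5 by -0.11 and -0.47. ATRX, a remodeller that works with DAXX at heterochromatin, read 5.95 with hairpin 2, 5.79 with hairpin 5 and 5.44 in the control (0.43 ± 0.11, SD, n = 2 hairpins). The other ATRX probe sets at the tested level differed by 0.23 and -0.40 (208859_s_at) and by 0.22 and 0.09 (208860_s_at).

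KDM6A and KDM6B remove methyl groups from H3K27, against PRC2. KDM6A read 3.52 with hairpin 2, 3.04 with hairpin 5 and 3.39 in the control, close to the tested limit. A second probe set (203991_s_at), under that limit on average, read 2.67 with hairpin 2, 2.58 with hairpin 5 and 3.29 in the control. KDM6B differed by -0.02 and 0.35 on its brightest probe set and by 0.36 and 0.44 on another (1556066_at).

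**Figure D3:**
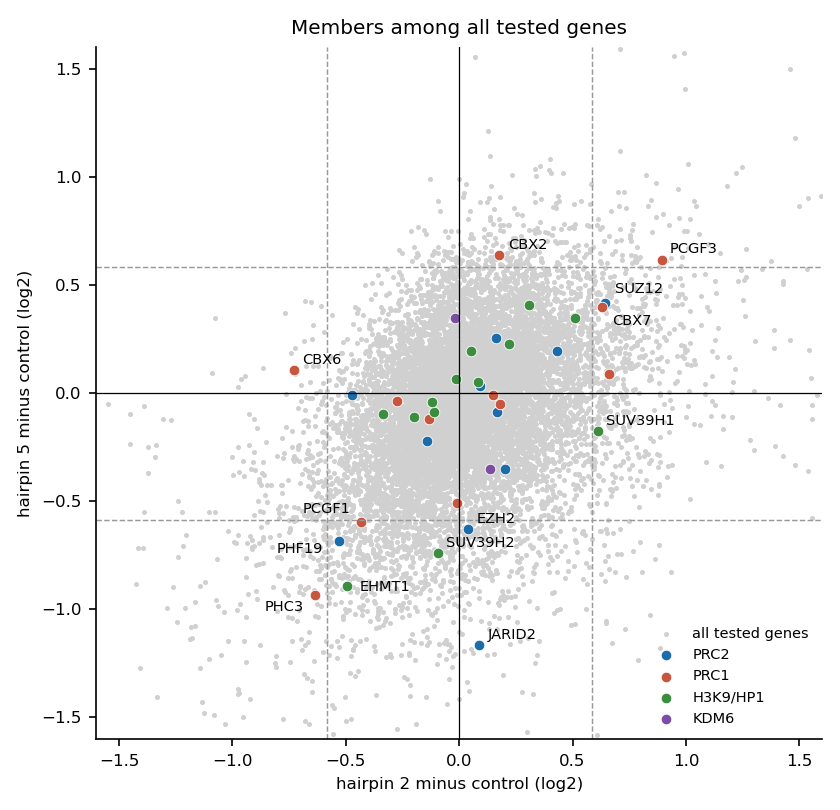
Difference from the scrambled control (log2) with UHRF1 hairpin 2 (x axis) and with UHRF1 hairpin 5 (y axis) for members by group (coloured) and all 11865 tested genes (grey), with dashed lines at 1.5-fold. The axes end at 1.6, which leaves out 85 tested genes and no member. PCGF3 lies in the upper right corner beyond both lines, PHC3 in the lower left, and JARID2 far below 0 on the hairpin 5 axis only.

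The hairpins were also read 1 at a time. With hairpin 2, 5 members were at least 1.5-fold above the control (13.2%, background 5.93% of tested genes): SUZ12, PCGF3, PCGF6, CBX7 and SUV39H1. On the lower side with hairpin 2 were CBX6 and PHC3 (5.26%, background 3.14%). With hairpin 5 the balance was the other way. There, 7 members were at least 1.5-fold below the control (18.4%, background 9.79%), namely EZH2, JARID2, PHF19, PCGF1, PHC3, SUV39H2 and EHMT1. PCGF3 and CBX2 were above it (5.26%, background 2.84%). All tested genes had the same lean, with more genes higher with hairpin 2 and more lower with hairpin 5, and both comparisons share the control array. Set against each other, hairpin 2 exceeded hairpin 5 by 1.5-fold in 4 members, EZH2, JARID2, SUV39H1 and SUV39H2 (10.5%, background 12.1%), and the reverse held for CBX6 (2.63%, background 2.65%). Each hairpin was hybridised once, so its own differences were not replicated.

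Values often depended on which probe set was read. Of the 38 members, 25 had several probe sets at the tested level, and in 17 of these the mean differences fell on both sides of 0. None had them at least 0.5 from 0 on both sides. Over all 119 member probe sets, 1 was 1.5-fold above the control with both hairpins (0.840%, background 0.482% of probe sets with 1 gene), that of PCGF3. On the lower side were 3 (2.52%, background 0.808%), 1 each of PHC3, CBX5 and KDM6A. The genes whose probe sets at the tested level all lay on 1 side with both hairpins, with more than 1 to compare, were PCGF5 and PHC3. SUZ12, CBX7, CBX1 and TRIM28 had 1 probe set each at that level.

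**Figure D4:**
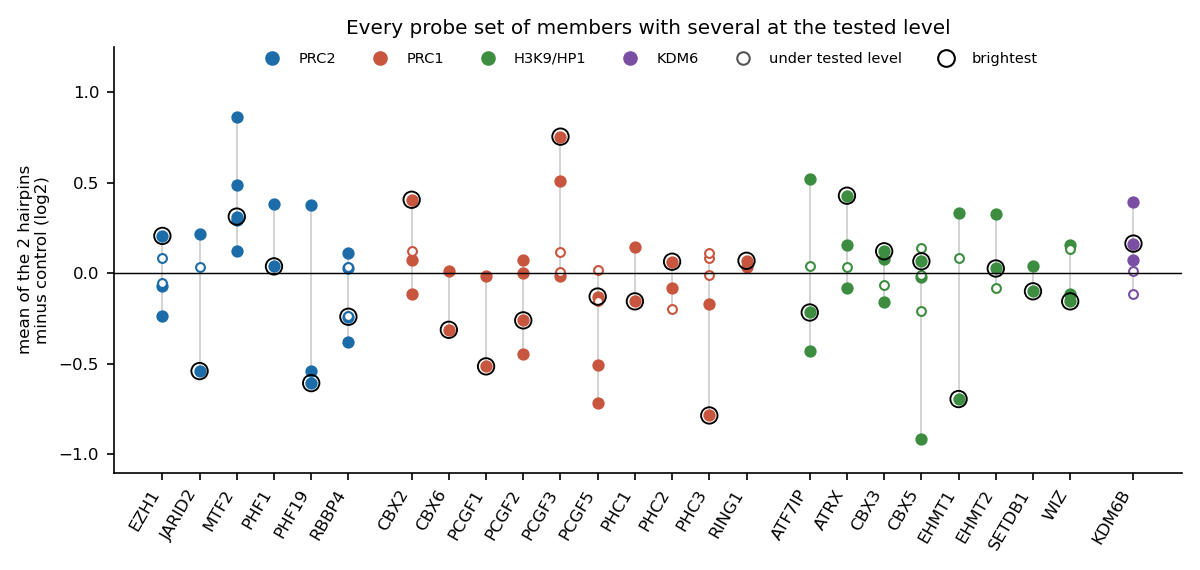
Mean of the 2 hairpins minus the scrambled control (log2) for every probe set of the 25 members with several at the tested level; filled points are at that level, open points under it, and a black ring marks the brightest. The points of MTF2 lie above 0, the filled points of PCGF5 and PHC3 below it, and those of PHF19, EHMT1 and ATF7IP on both sides.

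Partners of these complexes gave 1 further gene past 1.5-fold with both hairpins. It was RYBP, the subunit that variant PRC1 complexes such as those of PCGF3 contain, which read 7.52 with hairpin 2, 7.73 with hairpin 5 and 6.80 in the control (0.83 ± 0.15, SD, n = 2 hairpins; limma adjusted p = 0.999). Over its 4 probe sets RYBP differed by 0.43 and 0.30, which is under 1.5-fold with either hairpin. RYBP was the 1 gene of 44 related chromatin genes on the higher side (2.27%, background 0.460% of all genes and 0.759% of tested genes). On the lower side were 0 (background 1.00% of all genes and 1.59% of tested genes). The list's median was 0.13 with hairpin 2 and -0.02 with hairpin 5. KDM2B, of the PCGF1 complex, differed by 0.44 and -0.03, and BCOR, of the same complex, by -0.27 and -0.26, or -0.08 and 0.04 averaged over its 4 probe sets. DAXX, the partner of ATRX, differed by 0.28 and 0.28, or 0.15 and 0.22 over its probe sets. LCORL, a PRC2 partner, differed by -0.51 and -1.03, or -0.43 and -0.46 over its 3 probe sets. The H3K9 demethylase KDM4B differed by 0.10 and -1.05 on its brightest probe set, but by 0.14 and -0.03 over all 8. These 5 were named after their values were seen.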

How the data were processed

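Biotinylated cRNA from 3 cultures was hybridised to single-colour Affymetrix arrays. The deposited values are log2 expression values that the authors made by RMA in Affymetrix Expression Console; these names come from the submitters' processing notes. Software versions and settings are not given in the sources used here. Base 2 was taken from RMA and from the spread of the values (1.94 to 14.06 in the control), and no centring is stated. There are no detection calls, so a low value may be background, and the number of arrays limits the precision.

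Probe sets were named through the platform annotation and checked by gene identifier against RefSeq (GRCh38.p14). Of 54613 probe sets, 41091 had 1 gene, 1801 several and 11721 none. Each of 19775 genes was represented by its brightest probe set by mean over the arrays. The 11865 genes at or above the 40th percentile were fitted in limma (version 3.58.1, R 4.3.3) with lmFit and eBayes, hairpins minus control. Only 1 residual degree of freedom exists, which moderation raised to 5.77, and the single control is taken to vary as the hairpins do. No separate cultures are stated beyond the hairpins, so p-values rest on the spread between the 2 hairpin arrays, moderated over the genes. The fold rule (1.5-fold, same direction with both hairpins) was counted over all genes on the array and has no test.

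All 41 members are named. By rule, 16 have their values on every array: the 6 highest and 6 lowest by the smaller hairpin difference and the 4 with the largest difference between hairpins. SUV39H2, SETDB2 and KDM6A have array values besides, chosen after these were seen. Members, lists and rules were chosen with earlier results of these data known. Alternatives were other expression filters, other treatments of probe sets, median centring, cyclic loess, repeated quantile normalization, other variance priors, other thresholds and each hairpin alone. The mean over probe sets at the tested level was added after the values were seen.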

Additional observations from a re-analysis of the deposited data

How the results depend on the processing

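At 1.5-fold with both hairpins, at most 2 members stood apart from the control, whichever filter, probe set treatment or scaling was used. The count of members past 1.5-fold with both hairpins was 2 (PCGF3 and PHC3) under either expression filter, without _x_at or _s_at probe sets, with cyclic loess and with repeated quantile normalization. It was 1 with the arrays centred on their medians, where PCGF3 was lost although its mean difference was 0.75, against 0.76 as deposited. It was 0 when probe sets were averaged per gene, both over all of them and over those at the tested level, the last chosen after seeing the data. A 1.2-fold rule gave 9 (background 6.65% of tested genes higher and 9.09% lower) and a 2-fold rule 0 (background 0.101% and 0.278%). With hairpin 2 alone the count was 7 (background 5.93% higher and 3.14% lower). With hairpin 5 alone it was 9 (background 2.84% higher and 9.79% lower). Among the 119 member probe sets the count of 4 became 20 at 1.2-fold and 0 at 2-fold. The share over all probe sets was not counted at these 2 thresholds, so the 20 cannot be set against a background. As the mean over all probe sets, PCGF3 stood at 0.28, PHC3 at -0.15, EHMT1 at -0.09, PHF19 at -0.26 and SUZ12 at 0.14. The median member difference was -0.015 (against 0.07) for hairpin 2 without _x_at and _s_at probe sets, and 0.05 (against -0.04) for hairpin 5 with repeated quantile normalization, so its sign is not settled. The cause was not tested. All 38 mean differences kept their sign under the 3 scalings, and 22 kept it under every alternative tried. In limma 0 genes were called, and an intensity trend in the variance prior gave 1, HSPE1, which is not a member (adjusted p = 0.0475). Leaving out a hairpin leaves no residual degree of freedom, so limma was not run there. No paired analysis was possible because there is 1 control array.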

Other observations

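The HOX cluster genes are a textbook class of Polycomb targets. Of 28 with a probe set assigned to 1 gene alone, among which HOXA2 was the only HOXA gene, 17 were at the tested level. Of the 28, 0 passed the 1.5-fold rule on either side (background 0.460% of all genes higher and 1.00% lower). Against this background the count is not a result about the class. Their medians were 0.03 with hairpin 2 and 0.09 with hairpin 5. HOXB7 read 7.97 with hairpin 2, 7.80 with hairpin 5 and 7.47 in the control, and HOXB8 read 4.44 with hairpin 2, 3.71 with hairpin 5 and 4.85 in the control. These neighbours in the HOXB cluster, named after their values were seen, thus lay on opposite sides of the control with both hairpins. Averaged over probe sets, HOXB7 differed by 0.25 and -0.01, and HOXB8 by -0.34 and -0.76.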
